A study of Homo sapiens with 15 samples.

Results

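The metallothionein genes of high-grade serous ovarian cancer cells were followed across a platinum-sensitive line and 4 platinum-resistant lines derived from it. The genes were chosen by symbol: 6 metallothioneins were listed (MT1E, MT2A, MT1X, MT1F, MT1G and MT1M), and those whose Ensembl identifier has a row in the deposited table of 16604 genes were described. MT1E, MT2A, MT1X and MT1F, 4 of the 6, had a row and so had passed the depositors' threshold on low values. MT1G and MT1M are not analysed here. A gene that passed that threshold only through the lines where it is high had to differ between lines, so counts over these 4 genes describe them and support nothing further. The large fall of MT1E in 1 of the resistant lines was already known when the genes were listed, so MT1E is described with its differences and their 95% intervals and without p-values. The other genes were also listed with earlier results of these data known, so their p-values are given as descriptions.

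The starting line, Ovcar4Parental, is OVCAR4, an established human line used as a model of high-grade serous ovarian cancer, and its labels call it platinum sensitive. Ov4Cis was made resistant by growing the cells in rising concentrations of cisplatin, and Ov4Carbo by growing them in rising concentrations of carboplatin. Ov4Carbo4 and Ov4Carbo7 were each grown out from a single cell of Ov4Carbo, so each is 1 clone, and both carry the carboplatin selection of their source. All 5 lines were cultured in DMEM with serum and antibiotics, no line is labelled as under drug when RNA was taken, and polyadenylated RNA was sequenced from 3 biological replicates of each line, 15 samples in all. Each resistant state is represented by 1 selected line, so a difference between lines is a difference between these lines and not between drugs.

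Metallothioneins are short proteins in which cysteines make up a large part of the chain and hold zinc, copper or cadmium in clusters. Their transcription is driven by the zinc-sensing factor MTF1, which binds metal response elements in their promoters, and several members also respond to glucocorticoids and to oxidants. Their thiols can bind platinum, which is why they are often measured in platinum-resistant tumour cells. In the human genome the listed genes lie in 1 cluster on the long arm of chromosome 16, among further metallothionein genes and pseudogenes.

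The coding sequences of the 4 genes are shown because their likeness bears on how far reads of one can be told from reads of another. Each is 183 bases long without the stop codon, and 20 of its 61 codons are TGC or TGT, which encode cysteine. The sequences are from GENCODE release 29, written from the start codon, with bases that differ from MT1E in capitals.
MT1E: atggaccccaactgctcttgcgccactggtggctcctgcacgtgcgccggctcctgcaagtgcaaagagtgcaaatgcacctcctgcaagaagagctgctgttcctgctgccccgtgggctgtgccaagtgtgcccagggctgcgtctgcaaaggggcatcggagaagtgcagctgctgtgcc
MT2A: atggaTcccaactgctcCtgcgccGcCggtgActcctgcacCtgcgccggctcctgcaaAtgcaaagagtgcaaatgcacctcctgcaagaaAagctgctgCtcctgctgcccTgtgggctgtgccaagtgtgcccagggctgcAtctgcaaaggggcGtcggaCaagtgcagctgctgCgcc
MT1X: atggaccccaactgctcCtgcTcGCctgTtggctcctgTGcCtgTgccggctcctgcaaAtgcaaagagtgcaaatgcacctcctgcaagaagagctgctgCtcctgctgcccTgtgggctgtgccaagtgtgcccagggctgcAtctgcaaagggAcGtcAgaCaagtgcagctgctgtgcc
MT1F: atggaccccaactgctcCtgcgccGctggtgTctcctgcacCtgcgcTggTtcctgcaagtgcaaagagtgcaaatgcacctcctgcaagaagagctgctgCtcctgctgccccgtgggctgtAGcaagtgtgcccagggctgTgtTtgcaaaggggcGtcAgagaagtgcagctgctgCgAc
MT2A differed from MT1E at 14 bases, MT1F at 15 and MT1X at 17, so identity to MT1E was 92.3%, 91.8% and 90.7%. MT1X and MT1F were the least alike pair, with 21 differing bases. Of all 50-base windows of the whole transcript, which includes stretches outside the coding sequence, 94.7% in MT1E, 95.1% in MT2A, 96.4% in MT1F and 54.9% in MT1X occurred in no other gene. With windows of 100 bases, every window of MT1E, MT2A and MT1F and 80.9% of those of MT1X occurred in no other gene. The shared 100-base windows of MT1X occurred only outside the metallothionein genes. Its shared 50-base windows occurred both in other metallothioneins and outside them. The read length and the treatment of multiply mapped reads are not given in the sources used here, so the level of MT1X is the least certain of the 4.

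The promoters of MT2A and MT1X are shown because MTF1 acts through them, with every match to the core of the metal response element in capitals. The core was searched as TGCACNC or TGCGCNC on both strands in the 250 bases before the RefSeq transcription start (GRCh38.p14), and the sequences are given on the plus strand, MT2A at chr16:56608334-56608583 and MT1X at chr16:56682220-56682469.
MT2A: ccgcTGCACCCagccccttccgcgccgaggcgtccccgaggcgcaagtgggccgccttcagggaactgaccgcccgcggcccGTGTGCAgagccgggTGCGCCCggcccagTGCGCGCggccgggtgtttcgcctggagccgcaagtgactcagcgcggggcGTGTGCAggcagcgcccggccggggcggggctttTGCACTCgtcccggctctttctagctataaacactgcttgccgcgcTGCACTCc
MT1X: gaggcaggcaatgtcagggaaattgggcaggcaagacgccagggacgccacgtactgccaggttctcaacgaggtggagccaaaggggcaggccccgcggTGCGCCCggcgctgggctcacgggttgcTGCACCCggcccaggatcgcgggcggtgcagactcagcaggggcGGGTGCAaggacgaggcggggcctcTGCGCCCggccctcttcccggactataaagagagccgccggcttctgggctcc
MT2A held 7 matches, 5 on the plus strand and 2 on the minus strand, between positions -246 and -8 from the start. MT1X held 4, 3 on the plus strand and 1 on the minus strand, between positions -150 and -53. Among 35116 promoters of the same length, 24.8% held at least 1 match, 0.370% held at least 4 and 0.0313% held at least 7. Among the 16254 promoters of genes in the table, the shares were 31.7%, 0.511% and 0.0369%. A C followed by a G, which TGCGCNC contains, occurred 32 times in MT2A and 22 times in MT1X. The median was 11 over all promoters and 20 over those of genes in the table, and base composition was not matched. The promoter sequences of MT1E and MT1F were not used here.

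Values are log2 RPKM (reads scaled by gene length and library size, on a log2 scale) after the depositors' conditional quantile normalization, which adjusts for effects of length and GC content. Levels of different genes, their sums and shares are given on this per-length scale. How well levels compare between genes was not tested. A gene was called different between lines when limma's moderated test, fitted on all 16604 genes with Benjamini-Hochberg adjustment, gave an adjusted p under 0.05 and the difference was at least 1 log2 unit, that is, 2 times. The files give no read counts, so the depth behind a value is unknown. Sample medians lay between 2.768 and 2.770 log2 RPKM, and replicates of Ov4Carbo differed more from each other (root mean square 0.687 log2 units) than those of any other line (0.338 to 0.483). In bulk RNA such as this, fewer cells expressing a gene and less RNA per cell cannot be told apart. The sample titles fall into 2 numbered series. Only Ov4Carbo has samples in both (replicate 1 in the series of both clones, replicates 2 and 3 in that of Ovcar4Parental and Ov4Cis), so for the other lines title series and line cannot be told apart. A title series term in the fit is thus estimated from Ov4Carbo alone, as replicate 1 against replicates 2 and 3 of the line with the widest replicate spread. Values given below with that term show how far a difference moves and are not corrected estimates.

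MT2A encodes the metallothionein with the highest level of the 4 in every sample. It lay within the spread of the parental replicates in Ov4Cis and Ov4Carbo7, and was 3.35 and 5.66 times lower in Ov4Carbo and Ov4Carbo4. The parental replicates (ENSG00000125148, chromosome 16) measured 6.68, 6.37 and 5.79 log2 RPKM. Ov4Cis measured 6.28, 6.36 and 6.40, and Ov4Carbo7 measured 6.08, 5.88 and 6.02, both within the parental range. Ov4Carbo measured 5.17, 4.81 and 3.64 and Ov4Carbo4 measured 4.11, 3.25 and 3.98. Every sample of Ov4Carbo and Ov4Carbo4 lay below the lowest parental sample, while those 2 lines overlapped each other. The differences from the parental line by limma were -1.74 (SE 0.35, adjusted p = 0.00233) in Ov4Carbo and -2.50 (SE 0.35, adjusted p = 0.000123) in Ov4Carbo4. They were 0.06 (95% interval -0.69 to 0.82, adjusted p = 0.908) in Ov4Cis and -0.29 (95% interval -1.04 to 0.46, adjusted p = 0.533) in Ov4Carbo7. With the title series as a term in the fit, the last became -1.23 (adjusted p = 0.124), past 1 log2 unit and still short of the test.

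The 2 clones of Ov4Carbo differed in MT2A. Ov4Carbo7 was higher than Ov4Carbo4 by 2.21 log2 units (95% interval 1.46 to 2.97, limma adjusted p = 0.000196), or 4.63 times, and the samples did not overlap. Against their source, Ov4Carbo7 was higher by 1.45 (limma adjusted p = 0.0062) and Ov4Carbo4 differed by -0.76 (95% interval -1.51 to -0.01, adjusted p = 0.0963), so the mean of the source lay between those of its clones. With the title series as a term in the fit the first of these became 0.82 (adjusted p = 0.221) and the second -1.39 (adjusted p = 0.0351), and without replicate 3 of Ov4Carbo the second became -1.21 (adjusted p = 0.0052). The one Ov4Carbo sample in the clones' title series, at 5.17, lay below all 3 samples of Ov4Carbo7 and above all 3 of Ov4Carbo4. The 2 Ov4Carbo samples in the parental line's series, at 4.81 and 3.64, lay below all parental samples.

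MT1E, which lies next to the pseudogene MT1L in the cluster, had the widest range of the 4. Ovcar4Parental and Ov4Cis were high, Ov4Carbo was far lower, and both clones were near the bottom of the table. The parental replicates (ENSG00000169715, chromosome 16) measured 5.16, 4.68 and 4.53 log2 RPKM and those of Ov4Cis 4.99, 4.98 and 5.01. Ov4Carbo measured 1.00, 0.74 and -0.45. Ov4Carbo7 measured -3.21, -2.67 and -3.07, and Ov4Carbo4 measured -4.58, -5.42 and -5.14. The groups of samples overlapped only between Ovcar4Parental and Ov4Cis, and the order from high to low was Ov4Cis, Ovcar4Parental, Ov4Carbo, Ov4Carbo7 and Ov4Carbo4. In RPKM the line means were 28.1 ± 6.63 (SD, n = 3) for Ovcar4Parental, 31.8 ± 0.356 in Ov4Cis, 1.47 ± 0.661 for Ov4Carbo, 0.128 ± 0.0260 in Ov4Carbo7 and 0.0312 ± 0.00958 in Ov4Carbo4.

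MT1E stood between percentiles 78.4 and 86.3 of all genes of the same sample in the parental line, between percentiles 14.3 and 27.1 in Ov4Carbo and at or below percentile 4.30 in the clones. The differences from the parental line were 0.20 (95% interval -0.52 to 0.92) in Ov4Cis, -4.36 (-5.08 to -3.64) in Ov4Carbo, -7.77 (-8.49 to -7.05) in Ov4Carbo7 and -9.83 (-10.6 to -9.11) in Ov4Carbo4. The distance of 10.04 log2 units between its highest and lowest line mean ranked 9 among the 16604 genes. At levels near 0 RPKM a log2 difference can stand for a very small absolute one. On the log2(RPKM + 1) scale the differences from the parental line were -3.57 in Ov4Carbo, -4.67 in Ov4Carbo7 and -4.80 in Ov4Carbo4, and the 2.06 log2 units by which Ov4Carbo7 exceeded Ov4Carbo4 became 0.13. Both clones were thus lower than their source on either scale, by -3.41 and -5.48 for Ov4Carbo7 and Ov4Carbo4 as deposited and by -1.09 and -1.22 on the log2(RPKM + 1) scale.

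MT1F, another MT1 isoform gene, fell in Ov4Carbo and in Ov4Carbo7 but by less than MT1E. The parental replicates (ENSG00000198417, chromosome 16) measured 3.40, 3.06 and 3.12 log2 RPKM. Ov4Cis measured 3.64, 3.99 and 3.66, all above the parental samples, with a difference of 0.57 (95% interval -0.21 to 1.35, limma adjusted p = 0.243). Ov4Carbo measured 1.58, 1.65 and 0.08. Ov4Carbo7 measured 1.98, 1.62 and 1.51, and Ov4Carbo4 measured 2.89, 2.00 and 2.72. All samples of the 3 carboplatin lines lay below the lowest parental sample. The differences from the parental line were -2.09 (SE 0.36, limma adjusted p = 0.000883) in Ov4Carbo, or 4.26 times lower, and -1.49 (SE 0.36, adjusted p = 0.00513) in Ov4Carbo7, or 2.81 times lower. In Ov4Carbo4 the difference of -0.66 (95% interval -1.44 to 0.12, adjusted p = 0.168) did not pass the test. With the title series as a term it was -1.37 (adjusted p = 0.123), and without replicate 2 of Ov4Carbo4 it was -0.39.

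The clone in which MT1F was nearest to the parental level was therefore not the clone in which MT2A was. Ov4Carbo4 was higher in MT1F than Ov4Carbo by 1.43 (limma adjusted p = 0.00721), a call that was lost with the title series as a term (0.96, adjusted p = 0.169) and without replicate 3 of Ov4Carbo (0.92, adjusted p = 0.0114). Ov4Carbo7 differed from Ov4Carbo by 0.60 (95% interval -0.18 to 1.38, adjusted p = 0.209), or by 0.13 with the title series as a term, and from Ov4Carbo4 by -0.83 (95% interval -1.61 to -0.05, adjusted p = 0.0708). The last became -1.10 (adjusted p = 0.0339) without replicate 2 of Ov4Carbo4. Within the log2 values of each sample, MT1F lay 1.25 ± 0.02 (SD, n = 3) below MT2A in Ov4Carbo4 and 4.29 ± 0.21 below it in Ov4Carbo7, against 3.09 ± 0.36 in the parental line.

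MT1X, a further MT1 isoform gene, differed little between lines. The parental replicates (ENSG00000187193, chromosome 16) measured 1.13, 0.74 and 0.72 log2 RPKM and those of Ov4Cis 1.59, 1.20 and 1.54. Ov4Carbo measured 0.36, 0.88 and -0.33, Ov4Carbo4 measured 1.05, 0.34 and 1.17, and Ov4Carbo7 measured 1.23, 0.84 and 1.01. All samples of Ov4Cis lay above the parental ones, and the other 3 lines overlapped with them. None of the 4 differences from the parental line was called by limma, from -0.56 (95% interval -1.17 to 0.06, adjusted p = 0.147) in Ov4Carbo to 0.58 (95% interval -0.03 to 1.19, adjusted p = 0.131) in Ov4Cis. Ov4Cis was higher than Ov4Carbo by 1.14 (adjusted p = 0.00834), which fell short of 1 log2 unit without replicate 3 of Ov4Carbo (0.82, adjusted p = 0.0312) and with log2(RPKM + 1) values (0.72, adjusted p = 0.00433). Ov4Carbo7 differed from Ov4Carbo by 0.72 (adjusted p = 0.0626), or by 1.01 (adjusted p = 0.0152) without replicate 2 of Ov4Carbo.

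**Figure D1:**
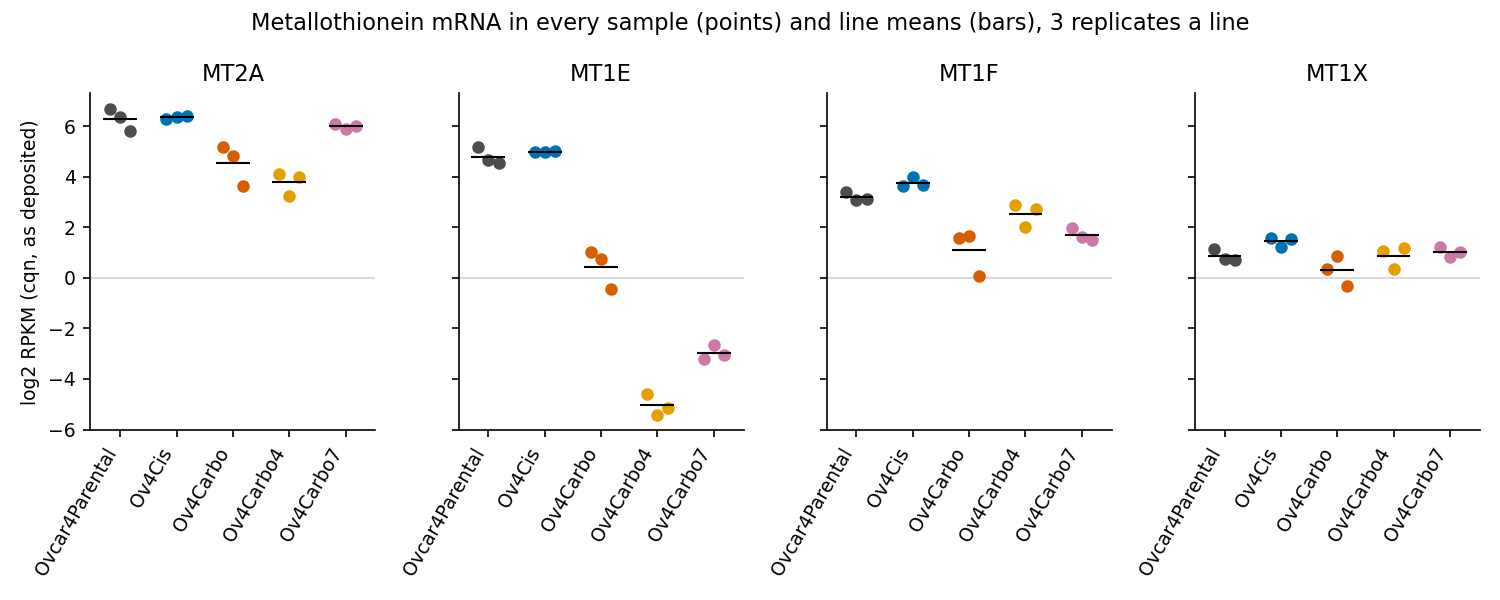
Deposited log2 RPKM of MT2A, MT1E, MT1F and MT1X (panels) in the 15 samples (points, replicates 1 to 3 from left to right) of the 5 lines, with the line mean as a bar. MT1E ranges from 5.16 in a parental sample to -5.42 in an Ov4Carbo4 sample, while MT1X stays between -0.33 and 1.59.

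The third replicate of Ov4Carbo was the lowest of its line for all 4 genes, at 3.64 in MT2A, -0.45 in MT1E, 0.08 in MT1F and -0.33 in MT1X. MT1E and MT2A were low together in that sample, and the log2 distance of MT1E from MT2A was -4.11 ± 0.05 (SD, n = 3) in Ov4Carbo, between -4.17 and -4.06 in its replicates. That distance was -1.49 ± 0.22 in the parental line and -1.35 ± 0.05 in Ov4Cis, and it was -8.98 ± 0.38 in Ov4Carbo7 and -8.83 ± 0.26 in Ov4Carbo4. Between the clones this distance differed by less than the SD of their replicates, which is not a test of likeness. MT1E lay at or below percentile 4.30 of all genes in both clones, so its distance from MT2A is uncertain there.

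Summed over the 4 genes on the RPKM scale, the parental replicates held 151, 119 and 88.7 RPKM. Ov4Cis held 125, 132 and 132. Ov4Carbo held 42.2, 34.7 and 15.1, Ov4Carbo4 held 26.9, 14.8 and 24.6, and Ov4Carbo7 held 73.9, 64.0 and 69.9. All samples of the 3 carboplatin lines were below the lowest parental sample, and the line means were 25.7%, 18.5% and 58.0% of the parental mean in Ov4Carbo, Ov4Carbo4 and Ov4Carbo7, against 109% in Ov4Cis. MT2A made up the largest share everywhere, from 62.2% to 92.9% of the sum in single samples. MT1E made up 23.7% of the sum in the parental line and 24.6% in Ov4Cis, 4.80% in Ov4Carbo, 0.187% in Ov4Carbo7 and 0.143% in Ov4Carbo4. MT1F made up 27.1% in Ov4Carbo4, its highest share, and 4.75% in Ov4Carbo7. No test was made on these sums.

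**Figure D2:**
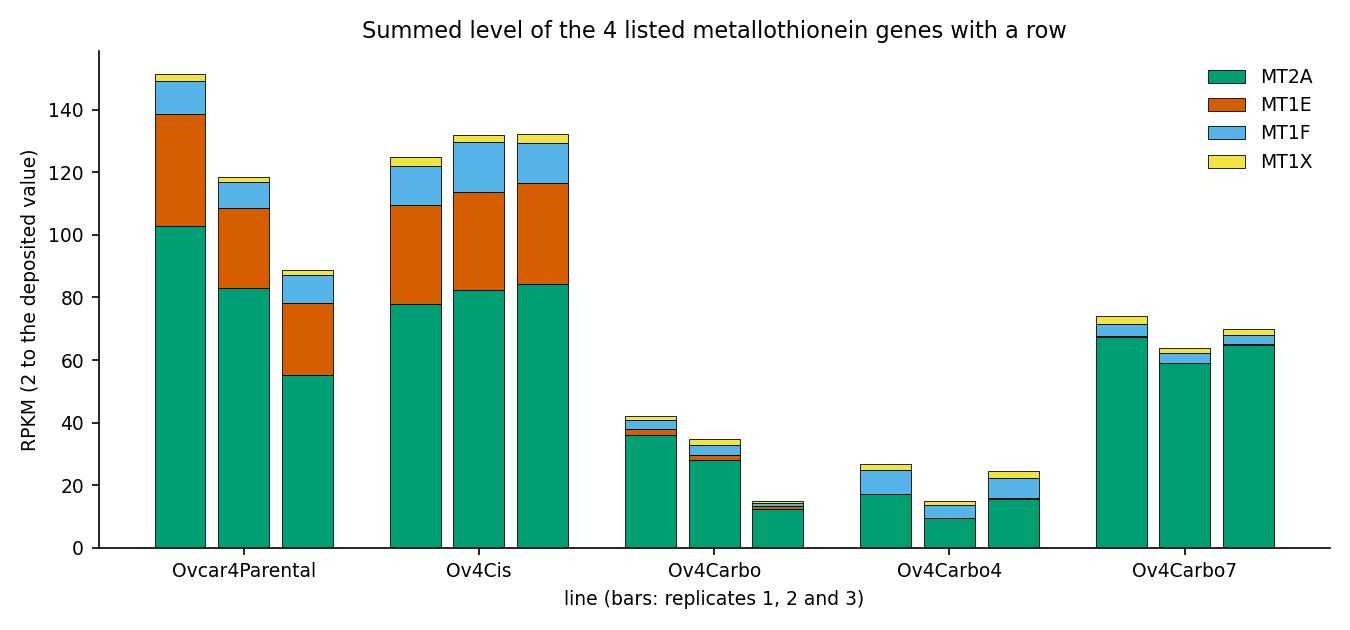
Level in RPKM (2 to the power of the deposited value) summed over MT2A, MT1E, MT1F and MT1X, stacked by gene, for replicates 1, 2 and 3 of each line. The carboplatin lines reach 14.8 to 73.9 RPKM, and the parental line and Ov4Cis reach 88.7 to 151.

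Counts of called genes are given with the share of all 16604 genes called in the same direction. Of the 4 genes, none was called in Ov4Cis against the parental line, where 8.46% of all genes were called higher and 7.41% lower. In Ov4Carbo, 3 were called lower (background 6.93%) and none higher (5.76%). In Ov4Carbo4, 2 were called lower (7.7%) and none higher (7.43%), and in Ov4Carbo7 2 were called lower (7.75%) and none higher (9.26%). MT1E is in each of these counts, and its fall was known in advance. The other calls were MT2A and MT1F in Ov4Carbo, MT2A in Ov4Carbo4 and MT1F in Ov4Carbo7. All 4 genes were listed with earlier results of these data known, so these calls too are descriptions and not independent support. The median difference of the 4 genes from the parental line was -1.92 in Ov4Carbo, -1.58 in Ov4Carbo4, -0.89 in Ov4Carbo7 and 0.39 in Ov4Cis, against 0.03, 0.07, 0.02 and 0.04 over all genes. By limma's moderated F-test over the 5 lines, the adjusted p was 7.03e-05 for MT2A, 0.000168 for MT1F and 0.0316 for MT1X, and 76.9% of all genes had an adjusted p under 0.05. For MT1X it rose to between 0.0589 and 0.0811 when replicate 1 or 3 of Ov4Cis or replicate 1 or 3 of Ov4Carbo was left out.

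**Figure D3:**
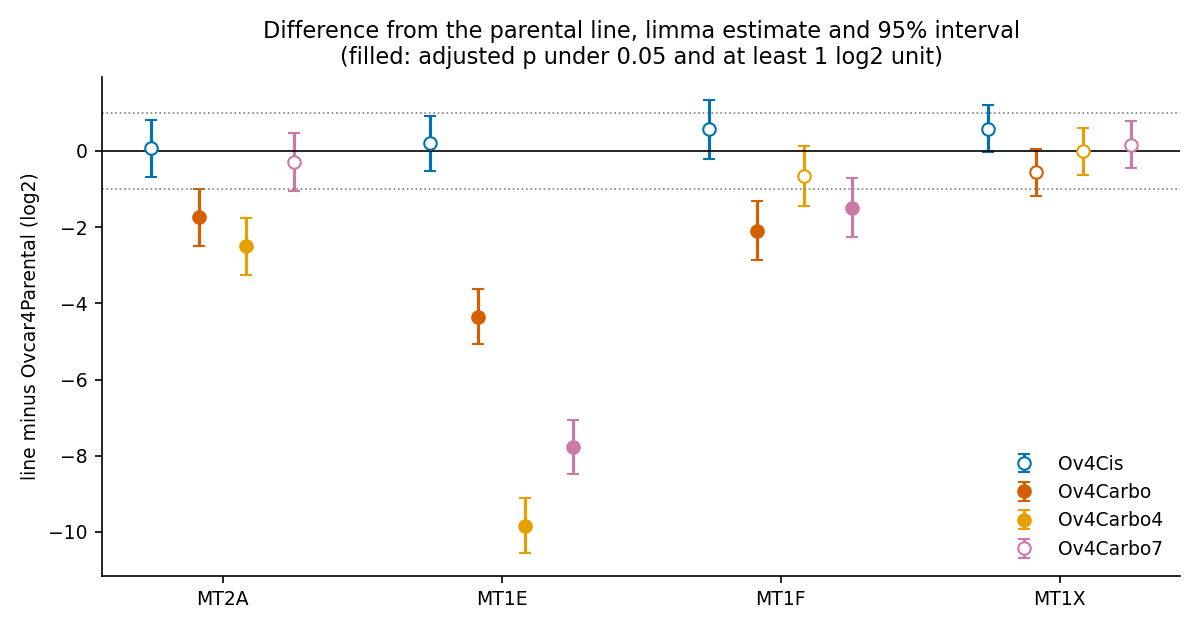
Difference of each resistant line from Ovcar4Parental in log2 units (limma estimate, bars: 95% interval) for the 4 genes, filled where called and open where not; dotted lines mark 1 log2 unit. MT2A is called in Ov4Carbo and Ov4Carbo4, MT1F in Ov4Carbo and Ov4Carbo7, MT1X in no line, and MT1E, shown as a description, lies lowest at -9.83.

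The cisplatin-selected line was compared with each carboplatin line, with MT1E again in every count though its fall was known in advance. Against Ov4Carbo all 4 genes were called higher in Ov4Cis (background 7.88% higher, 5.9% lower), MT2A by 1.81 (limma adjusted p = 0.00168) and MT1F by 2.66 (adjusted p = 0.000126). Against Ov4Carbo4, 3 were called higher (9.12% higher, 7.72% lower), MT2A by 2.57 (adjusted p = 8.32e-05), MT1F by 1.23 (adjusted p = 0.0146) and MT1E. The difference in MT1F was 1.12 (adjusted p = 0.0518) without replicate 2 of Ov4Cis, 0.96 (adjusted p = 0.0678) without replicate 2 of Ov4Carbo4 and 1.94 (adjusted p = 0.0331) with the title series as a term. Against Ov4Carbo7, 2 were called higher (7.46% higher, 7.2% lower), MT1F by 2.06 (adjusted p = 0.000675) and MT1E, and MT2A differed by 0.35 (95% interval -0.40 to 1.11, adjusted p = 0.455), or by 1.30 (adjusted p = 0.107) with the title series as a term. Between each clone and Ov4Carbo the genes went both ways. In Ov4Carbo4, MT1F was called higher and MT1E lower (background 7.58% higher, 6.64% lower). In Ov4Carbo7, MT2A was called higher and MT1E lower (7.72% higher, 5.62% lower). Ov4Carbo7 against Ov4Carbo4 had MT2A and MT1E called higher and none lower (11.1% higher, 9.86% lower), and for MT1E the difference on the log2(RPKM + 1) scale was 0.13 and not called. The comparisons share lines, Ovcar4Parental in 4 of the 10 and Ov4Carbo in 4, so their values are not independent of each other.

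The table holds 4 further metallothionein rows, 1 of a gene and 3 of pseudogenes. MT1A, a further functional MT1 gene, measured 1.55, 1.93 and 1.67 log2 RPKM in the parental replicates and was called lower only in Ov4Carbo4, at 0.67, 0.18 and 0.14 (difference -1.39, limma adjusted p = 0.00508). That call was lost on the log2(RPKM + 1) scale (-0.92, adjusted p = 0.00263) and with the title series as a term (-0.53, adjusted p = 0.491). In Ov4Cis MT1A measured 1.56, 0.24 and 0.59, so that it was the one functional row below the parental mean there (-0.92, adjusted p = 0.0436). MT1A became called lower in Ov4Cis without its replicate 1 (-1.30, adjusted p = 0.00473) and in Ov4Carbo without its replicate 2 (-1.23, adjusted p = 0.0171), where the difference over all samples was -0.94 (adjusted p = 0.0423).

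MT1L, a transcribed pseudogene that lies between MT2A and MT1E on the same strand, measured 2.73, 2.59 and 1.86 in the parental line and 1.39, 0.63 and 1.20 in Ov4Cis. It was at or below -4.82 in all 9 samples of the carboplatin lines. The difference from the parental line was -1.32 (limma adjusted p = 0.0035) in Ov4Cis, where MT1E differed by 0.20. In Ov4Carbo it was -8.70 (adjusted p = 2.13e-09) and in the clones -7.43 (Ov4Carbo4) and -7.56 (Ov4Carbo7), or between -2.63 and -2.61 for the 3 lines on the log2(RPKM + 1) scale. MT1L and MT1E, next to each other, thus differed most from the parental line of all metallothionein rows in each carboplatin line. Within Ov4Carbo, MT1E stood 6.73 ± 1.06 (SD, n = 3) log2 units above MT1L, against 2.39 ± 0.30 in the parental line. MT1L was at or below percentile 0.735 of all genes in those Ov4Carbo samples, so this distance rests on values near the bottom of the table. MT1L minus MT1E was -3.92 ± 0.39 in Ov4Cis, 0.01 ± 0.43 in Ov4Carbo4 and -2.18 ± 0.79 in Ov4Carbo7. In the clones both rows were near the bottom.

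MT2P1 on chromosome 4 and MT1XP1 on chromosome 1 are processed pseudogenes, copies of transcripts inserted elsewhere in the genome. MT2P1 followed MT2A: after each row was centred on its own mean, its root mean square difference from MT2A over the 15 samples was 0.272 log2 units, and no other gene with a symbol came nearer to MT2A. MT2P1 stood between 2.67 and 1.68 log2 units below MT2A in every sample, and its differences from the parental line were -1.92 in Ov4Carbo (limma adjusted p = 0.000438), -2.18 in Ov4Carbo4 (adjusted p = 0.000109), -0.56 in Ov4Carbo7 (adjusted p = 0.15) and -0.04 in Ov4Cis (adjusted p = 0.937). With the title series as a term, Ov4Carbo7 was called lower at -1.60 (adjusted p = 0.0176). MT1XP1 followed MT1X with a root mean square difference of 0.307, and 3 genes with a symbol came nearer to MT1X. Its difference from the parental line was called in Ov4Carbo alone, at -1.12 (adjusted p = 0.00757), or -0.74 (adjusted p = 0.0121) without replicate 3 of Ov4Carbo and -0.55 on the log2(RPKM + 1) scale. The longest stretch without a mismatch was 68 bases between MT2A and MT2P1 and 87 between MT1X and MT1XP1, and 32 bases between MT2A and MT1E. The depositors' counting could have split reads between these genes and their copies, so the pseudogene rows and the levels of MT2A and MT1X are uncertain. MT1E shared longer stretches with other metallothioneins than with MT2A, 85 bases with MT1G and 79 with MT1JP, so a split could reach its level too. Whether the copies are transcribed was not tested.

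**Figure D4:**
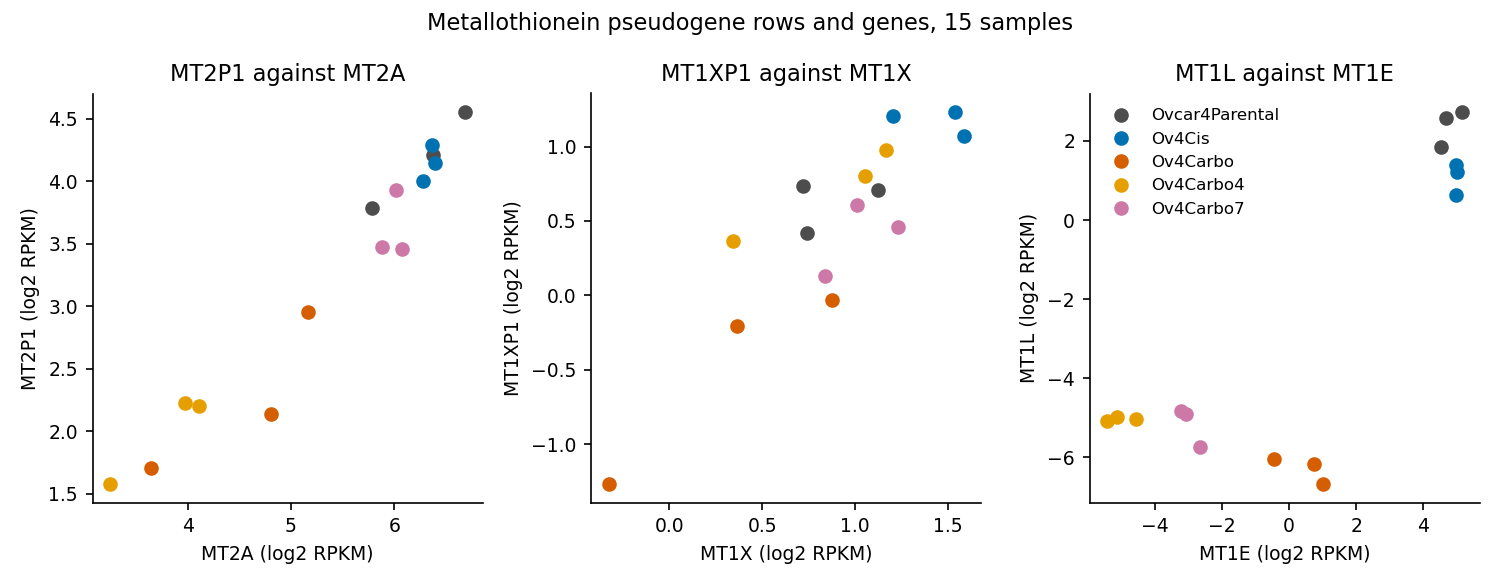
Log2 RPKM of MT2P1 against MT2A, MT1XP1 against MT1X and MT1L against MT1E in the 15 samples, coloured by line. MT2P1 lies along a line with MT2A over its whole range, while MT1L forms 2 groups, between 0.63 and 2.73 in Ovcar4Parental and Ov4Cis and at or below -4.82 in the other 3 lines.

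The genes on either side of the cluster were compared because the metallothioneins lie in a row on chromosome 16. In the order of the chromosome, the rows are MT2A, MT1L, MT1E, MT1A, MT1F and MT1X. The nearest table genes before them, OGFOD1 and BBS2, and after them, NUP93 and RPS24P17, were called in none of the 10 comparisons. BBS2, a ciliary transport gene, differed from the parental line by 0.03 to 0.21 log2 units, and NUP93, a nuclear pore gene, by -0.43 to 0.19. Of the 10 table genes on each side, 2 were called higher and none lower in Ov4Cis, none higher and 1 lower in Ov4Carbo, 2 higher and none lower in Ov4Carbo4, and 1 higher and 1 lower in Ov4Carbo7. For 20 genes these counts are near the shares of all genes called, 8.46% higher and 7.41% lower in Ov4Cis, 5.76% and 6.93% in Ov4Carbo, 7.43% and 7.7% in Ov4Carbo4, and 9.26% and 7.75% in Ov4Carbo7. The same shares are the background for the lists that follow. The largest of these differences were higher values of MMP2, which encodes a matrix metalloproteinase, in Ov4Cis (2.47, limma adjusted p = 4.98e-06) and of LPCAT2, a lysophospholipid acyltransferase, in Ov4Carbo4 (1.80, adjusted p = 0.00102).

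**Figure D5:**
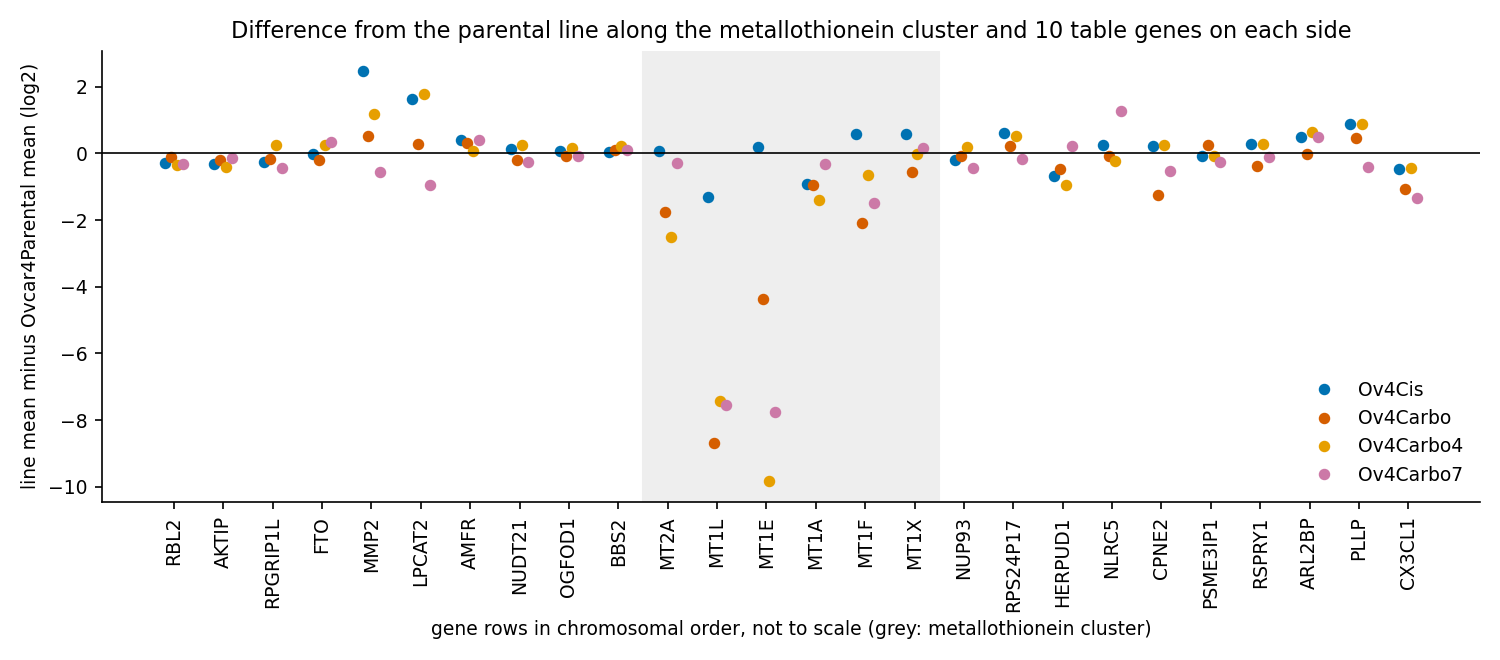
Difference of the line mean from the Ovcar4Parental mean (log2) for the 6 metallothionein rows of chromosome 16 (grey band) and the 10 table genes on each side, in chromosomal order and not to scale. MT1L and MT1E lie at -4.36 to -9.83 in the carboplatin lines, while the nearest flanking genes OGFOD1, BBS2, NUP93 and RPS24P17 stay between -0.43 and 0.62.

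The factors that act on metallothionein promoters were compared by the same test. All 8 regulators listed had a row, and none was called in Ov4Cis, Ov4Carbo or Ov4Carbo4 against the parental line. In Ov4Carbo7, 1 was called higher (background 9.26%): NFE2L2, the oxidant-responsive factor NRF2, by 1.02 (limma adjusted p = 2.44e-05). MTF1 itself had line means of 2.94 log2 RPKM in the parental line, 2.83 in Ov4Carbo, 3.13 in Ov4Carbo4, 3.45 in Ov4Carbo7 and 3.43 in Ov4Cis. Its differences of 0.49 (adjusted p = 0.00953) in Ov4Cis and 0.51 (adjusted p = 0.00697) in Ov4Carbo7 were under 1 log2 unit, and it differed by -0.12 (adjusted p = 0.522) in Ov4Carbo and 0.19 (adjusted p = 0.28) in Ov4Carbo4. Against Ov4Carbo, 1 regulator was called higher in Ov4Carbo4 (by 1.13, background 7.58%), in Ov4Carbo7 (by 1.36, 7.72%) and in Ov4Cis (by 1.33, 7.88%). It was NR3C1, the glucocorticoid receptor gene, named here after its values were seen, with line means of 4.17 log2 RPKM in the parental line, 3.34 in Ov4Carbo, 4.47 in Ov4Carbo4, 4.71 in Ov4Carbo7 and 4.67 in Ov4Cis.

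Zinc enters the cytosol through SLC39 carriers and leaves it through SLC30 carriers. Of 24 such genes listed, 18 had a row. None was called in Ov4Cis or Ov4Carbo7 against the parental line, 1 was called lower in Ov4Carbo (background 6.93%), and 1 higher (7.43%) and 1 lower (7.7%) in Ov4Carbo4, counts near the background for 18 genes. The gene called lower in both was SLC39A8, an importer of zinc, with line means of 5.23 log2 RPKM in the parental line, 2.97 in Ov4Carbo, 2.84 in Ov4Carbo4, 5.21 in Ov4Carbo7 and 5.14 in Ov4Cis. SLC39A8 differed from the parental line by -2.26 (limma adjusted p = 0.00059) in Ov4Carbo and -2.39 (adjusted p = 0.000262) in Ov4Carbo4, and by -0.09 and -0.02 in Ov4Cis and Ov4Carbo7. These are the lines in which MT2A was called lower, with differences of -1.74 and -2.50. SLC30A1, a zinc exporter and itself a target of MTF1, measured 4.66 in the parental line and differed by -0.71 (adjusted p = 0.00642) in Ov4Carbo, under 1 log2 unit, and by -0.02 to -0.0019 in the other 3 lines. The median difference of the 18 genes was -0.04, -0.07, 0.01 and 0.14 in Ov4Cis, Ov4Carbo, Ov4Carbo4 and Ov4Carbo7.

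Of 11 copper-handling genes listed, 10 had a row. In Ov4Cis 1 was called lower (background 7.41%), in Ov4Carbo none was called, and 1 was called higher in each clone (7.43% in Ov4Carbo4, 9.26% in Ov4Carbo7), counts near the background: SLC31A2, a copper transporter, in Ov4Carbo4 (1.56, limma adjusted p = 0.00021) and ATP7A, a copper-exporting ATPase, in Ov4Carbo7 (1.10, adjusted p = 0.000111). Of 10 glucocorticoid-responsive genes, 9 had a row. None was called in Ov4Cis or Ov4Carbo, and 2 were called lower in each clone (background 7.7% in Ov4Carbo4, 7.75% in Ov4Carbo7). TXNIP, a thioredoxin inhibitor, differed by -1.998 (adjusted p = 0.002) in Ov4Carbo4, by 0.80 (adjusted p = 0.153) in Ov4Carbo and by 0.96 (adjusted p = 0.077) in Ov4Carbo7, where its samples lay above the parental ones, and GADD45B, a stress-response gene, differed by -1.65 (adjusted p = 0.0023) in Ov4Carbo7. Of 10 heat-shock and metal-stress genes, 9 had a row. The small heat-shock protein HSPB1 was lower in all 3 carboplatin lines, by -1.01 (adjusted p = 3.14e-05) in Ov4Carbo, -1.78 (adjusted p = 2.08e-07) in Ov4Carbo4 and -1.03 (adjusted p = 1.35e-05) in Ov4Carbo7, and differed by -0.38 in Ov4Cis. The inducible chaperone gene HSPA1A was called higher in Ov4Carbo4 (1.55, adjusted p = 0.00156). In this list 1 gene was called lower in Ov4Carbo (background 6.93%), 1 higher (7.43%) and 1 lower (7.7%) in Ov4Carbo4, 2 higher (9.26%) and 1 lower (7.75%) in Ov4Carbo7 and none in Ov4Cis.

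Outside the metallothioneins, the named genes with the profile nearest to each gene were found by the root mean square difference of centred log2 values over the 15 samples. For MT2A these were NFIB (0.381), RUNX1 (0.395) and NOS1 (0.407), against a spread of MT2A itself of 1.10. RUNX1, a transcription factor gene, had line means of 5.12 log2 RPKM in Ovcar4Parental, 3.93 in Ov4Carbo, 2.58 in Ov4Carbo4, 4.88 in Ov4Carbo7 and 4.94 in Ov4Cis. For MT1E they were ZNF844 (1.49), ZNF93 (1.84) and ZNF542P (1.88), against its own spread of 4.05. ZNF844, a zinc finger gene, had means of 0.80, -2.34, -5.98, -5.71 and -0.02 in the same order of lines. For MT1F they were DENND2A (0.316), ACSL5 (0.443) and CCIN (0.457), against 1.04, and for MT1X CCDC107 (0.265), TUBB6 (0.304) and RALGAPA1 (0.307), against 0.476. Among the metallothionein rows some pairs were close and others were not. The counts that follow are of genes with a symbol outside the metallothioneins, where 15585 genes had a symbol in all. The measure also grows with the difference in spread, which was 4.05 for MT1E and 1.10 for MT2A. A large distance thus does not show that 2 profiles differ in shape. No gene came nearer to MT2A than MT2P1, 3 came nearer to MT1X than MT1XP1, 10 came nearer to MT1F than MT1XP1, 11 came nearer to MT1E than MT1L, and 129 came nearer to MT1F than MT1X. For other pairs, 201 genes came nearer to MT1E than MT2A did, and 743 and 2410 came nearer to MT2A than MT1X and MT1F did.

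The identity of the lines was checked against marker genes. PAX8, a lineage factor of the Mullerian epithelium, lay between 5.66 and 6.87 log2 RPKM in all 15 samples, whereas WT1, often used to mark serous carcinoma, was below 0 in all. The summed level of the 10 epithelial markers was 948 to 1146 RPKM in the parental line and 488 to 750 in the resistant lines. It was 488 to 503 in Ov4Carbo7 and 497 to 608 in Ov4Cis. EPCAM, KRT7, KRT8, KRT18, MUC16 and CDH1 had their lowest line mean in Ov4Cis, while SOX17, MECOM and WT1 had their highest there. Leukocyte markers with a row (2 of 5) summed to at most 1.96 RPKM in any sample. Among endothelial markers (3 of 4 with a row) the sum was 32.3 to 40.9 RPKM in Ov4Cis, 20.7 to 25.2 in Ov4Carbo4 and at most 10.26 in the other lines, nearly all from CDH5, which lay between 1.97 and 5.29 log2 RPKM, with VWF and KDR at or below 0.28. Fibroblast markers (4 of 6) summed to between 4.04 and 14.6 RPKM, mainly from COL1A1. The part of these differences in the metallothionein levels was not tested.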

How the data were processed

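RNA sequencing of 15 cultures, 3 of each of 5 lines, was analysed from 1 table of 16604 genes. The authors deposited each value as log2 RPKM, made with conditional quantile normalization (cqn) and a threshold on low values, per the file's name; the threshold itself is not given in the sources used here. BWA 0.7.15-r1140, HTSeq, hg19 and GRCh37 are named in the submitters' processing notes. No counts or depths are given, so no count test was possible and precision rests on the replicates.

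The values were fitted with limma 3.58.1 (R 4.3.3), 1 mean per line over all 15 samples, and Benjamini-Hochberg adjustment over all 16604 genes. Calls needed an adjusted p below 0.05 together with a difference of 1 log2 unit or more. The fit was also run on simulated independent normal values without a title series effect. That run says nothing about very low levels or about the title series. Members and lists were chosen with earlier results of these data known. Named were all metallothionein rows, MTF1 and SLC30A1, the 3 nearest profiles per gene, the 2 nearest table genes on each side of the cluster and, per list, up to 2 called genes with the largest differences from the parental line and a highest line mean of at least 0. Symbols were matched for 15585 genes. Alternatives were a variance trend, quantile normalization, log2(RPKM + 1), a filter at a mean of 1 log2 RPKM (12037 genes), a replicate block, a title series term and leaving out each replicate. The lists compared were zinc transporters, regulators of metallothionein transcription, copper handling, glucocorticoid-responsive genes, heat shock and metal stress, and neighbours of the cluster. Marker lists were epithelial, fibroblast, leukocyte and endothelial. Coding sequences came from GENCODE release 29 and promoters from RefSeq GRCh38.p14, and gene coordinates in the files' build were not used here.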

Additional observations from a re-analysis of the deposited data

Results flagged for a closer look

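Listed here are estimates against the parental line with opposite signs in a pair of resistant lines, where limma called the difference between those lines. The size of that difference is given in log2 units. The parental samples are shared by both effects of each pair. None of the positive effects was itself called, nor were the negative ones of MT1X in Ov4Carbo and MT1F in Ov4Carbo4. The signs are therefore those of the estimates, and a rise against the parental line is not shown for any of them. In MT1E, Ov4Cis (0.20) was opposite to Ov4Carbo (-4.36), Ov4Carbo4 (-9.83) and Ov4Carbo7 (-7.77), with differences of 4.56, 10.04 and 7.98. In MT2A, Ov4Cis (0.06) was opposite to Ov4Carbo (-1.74) and Ov4Carbo4 (-2.50), with differences of 1.81 (adjusted p = 0.00168) and 2.57 (adjusted p = 8.32e-05). In MT1X, Ov4Cis (0.58) and Ov4Carbo (-0.56) differed by 1.14 (adjusted p = 0.00834). In MT1F, Ov4Cis (0.57) was opposite to Ov4Carbo (-2.09), Ov4Carbo4 (-0.66) and Ov4Carbo7 (-1.49), with differences of 2.66, 1.23 and 2.06. In the pseudogene row MT1XP1, Ov4Carbo (-1.12) was opposite to Ov4Carbo4 (0.09) and Ov4Cis (0.55), with differences of 1.22 and 1.67.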

How the results depend on the processing

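Depth is unknown, and levels far below 0 log2 RPKM (MT1E in the clones, MT1L in the carboplatin lines) rest on an unknown and possibly very small number of reads. Of the 40 single differences of the 4 genes over the 10 comparisons, all 40 kept direction and call with a variance trend, with quantile normalization and with a replicate block. Replicate numbers did not pair the samples: the correlation of same-numbered deviations ran from -0.394 to 0.437 over 30 pairs of samples, 11 were over 0.1, and 4 of 15 samples correlated best with their own number. With the replicate block, Ov4Carbo against the parental line kept 3 called genes and the F-test of MT1X gave an adjusted p of 0.0424. The filter at a mean of 1 log2 RPKM removed MT1E and MT1X, so fewer genes were tested, and counts of called genes became 2 for Ov4Carbo and 1 for both clones against the parental line, 1 for both against Ov4Carbo, 1 between the clones, 2 for Ov4Cis against Ov4Carbo and against Ov4Carbo4, and 1 for Ov4Cis against Ov4Carbo7. Between the clones the count was also 1 with log2(RPKM + 1), and Ov4Carbo7 against Ov4Carbo had 1 with the title series term. Leaving out 1 replicate changed 11 of 600 differences of the 4 genes, each time a replicate of a compared line. Most of the 600 left out a replicate of another line, which cannot move the estimate. With 1 replicate left out, the adjusted p of the F-test of MT1X ran from 0.00681 to 0.0811. Ov4Cis minus the parental line in MT2A ran from -0.18 to 0.27. In MT1X, Ov4Carbo4 minus the parental line ran from -0.16 to 0.25 and Ov4Carbo7 minus Ov4Carbo4 from -0.081 to 0.33. Small differences changed sign in MT1X (Ov4Carbo4 minus the parental line, 0.0023 with log2(RPKM + 1)), in MT1A (Ov4Carbo7, 0.54) and MT1XP1 (Ov4Carbo4, -0.35) with the title series term, and on leaving out 1 replicate in MT1XP1 (Ov4Carbo4, from -0.037 to 0.27) and MT2P1 (Ov4Cis, from -0.24 to 0.15). The cause was not tested.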
